A study of Drosophila melanogaster with 16 samples.

Results

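The genes described here encode the Rebers-Riddiford family of cuticle proteins, the largest family of structural proteins in the insect exoskeleton. They were taken from the gene table by symbol alone: every symbol beginning with Cpr and a digit, Lcp, Ccp84, Edg and a digit, or Acp65A, together with Pcp. The rule found 75 of the 9982 genes in the table, of which 51 were Cpr genes, 13 Lcp genes (larval cuticle proteins), 7 Ccp84 genes (the cuticle cluster at cytological position 84A), 2 Edg genes (ecdysone-dependent genes), the adult cuticle protein gene Acp65Aa and the pupal cuticle protein gene Pcp. A further 22 genes that match the rule in the fly annotation were not analysed here. All 75 passed the filter on low values.

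Most proteins of the family carry the Rebers-Riddiford consensus, a stretch that folds into a chitin-binding domain and ties the protein to the chitin fibres secreted by the epidermis and the trachea. The class RR-1 is known mainly from soft and flexible cuticle and the class RR-2 from hard cuticle. A larva secretes a new cuticle before each moult and goes on adding to it between moults, so that single cuticle genes are transcribed in short windows set by pulses of the moulting hormone ecdysone. For most Cpr genes no role beyond the consensus is known. Edg91 encodes a glycine-rich cuticle protein and entered by its symbol.

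The family is arranged in tandem runs. With neighbours at most 20 kb apart counted as 1 run, 54 of the 75 genes lay in 12 runs of at least 2 genes. The longest run, 15 genes, spanned chromosome arm 3L from 6130386 to 6158630 and held Acp65Aa and most of the Lcp65A and Cpr65A genes. The 7 Ccp84A genes spanned 3R from 6686728 to 6704903 (both in release 6 coordinates of the fly genome). On 2R, runs of 6 genes at 49A, 4 at 47E and 4 at 44D (Lcp1, Lcp2, Lcp3 and Lcp4) were measured.

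RNA was sequenced from whole Drosophila melanogaster larvae, 20 pooled per library, 16 libraries in 4 groups of 4. By the growth protocol, 1st instar larvae were picked 24 h after egg laying. At 48 h after egg laying they were early 2nd instars (the stage label reads 3rd instar). They were then moved to a high sugar diet (HSD, 10% yeast and 15% sucrose) or kept on a low sugar diet (LSD, 10% yeast) for 8 h. The 4 groups were grn RNAi on LSD, control on LSD, grn RNAi on HSD and control on HSD. In all of them the ubiquitous driver Tub-GAL4 was present. It drove either a hairpin against grain (grn), which encodes a GATA transcription factor, or a luciferase hairpin inserted in another fly line, so the hairpin and the genetic background of its line cannot be told apart. Groups follow the sample titles, because a separate genotype label reads wild type for all LSD and erk7 mutant for all HSD libraries.

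The targeted gene went against the label. grn read 226.9 to 259 normalized CPM on LSD and 207.2 to 230.7 on HSD in libraries labelled grn RNAi, against 14.62 to 20.82 on LSD and 17.09 to 23.36 on HSD in control libraries. The level was thus higher in every library labelled grn RNAi, the cause was not tested, and every direction given for grn RNAi below rests on that label. In a separate measurement of relative grn expression, the study reports that both of its grn RNAi lines lowered it. Libraries held 24038848 to 32644817 reads in genes. The captions of the study give the 4 libraries of a group as biological replicates. Nothing in the labels says whether they came from separate cultures, so p-values weigh a difference against the spread between these libraries. In whole larvae, fewer cells of a type and less RNA per cell cannot be told apart.

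Before any comparison, the family itself showed libraries that stood apart within their groups. Summed over the 75 genes, the level was 4500 to 6105 normalized CPM in libraries labelled grn RNAi on LSD, against 12078 to 18706 in control on LSD. On HSD it was 4891 to 7248 in libraries labelled grn RNAi, against 9472 to 18527 in control. These sums were 0.48 to 0.65% of all reads in libraries labelled grn RNAi and 1.11 to 1.65% in control on LSD, and 0.51 to 0.77% against 0.91 to 1.74% on HSD. The groups labelled grn RNAi did not overlap with their controls on either diet. The 4 control libraries on HSD split into a high and a low pair, replicates 3 and 4 at 18527 and 14342 against replicates 1 and 2 at 9815 and 9472, a spread that the control libraries on LSD also showed in part.

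**Figure D1:**
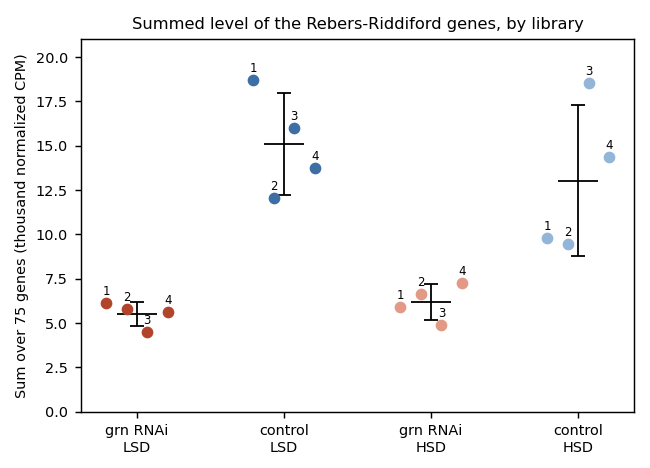
Summed level of the 75 cuticle protein genes in each of the 16 libraries, in normalized CPM, with the mean and SD of each group of 4. Libraries labelled grn RNAi lie between 4500 and 7248 and control libraries between 9472 and 18527.

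The first comparison asked how the family stood in larvae labelled grn RNAi on the low sugar diet. The family was much lower: 54 of the 75 genes fell and 9 rose at an adjusted p of 0.05 (limma on log2 of normalized CPM plus 0.5, Benjamini-Hochberg adjustment over all 9950 genes tested), that is 72% and 12% of the family, where 27.1% of all genes tested were called lower and 27.1% higher. The median log2 fold change was −2.23 over the family and 0.0293 over all genes tested. Among the 54 lower genes the median was −2.64, a 6.24-fold lower level, and 53 lay beyond −1 and 40 beyond −2. The 4 values labelled grn RNAi lay wholly below the 4 control values for 57 members and wholly above for 9, which happened for 24.4% and 23.1% of all genes tested. The 12 genes that did not pass were Lcp3, Lcp4, Lcp65Ag1, Lcp65Aa, Pcp, Cpr11B, Cpr49Ah, Cpr65Ax1, Cpr65Ax2, Cpr73D, Cpr76Bb and Cpr78Ca.

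**Figure D2:**
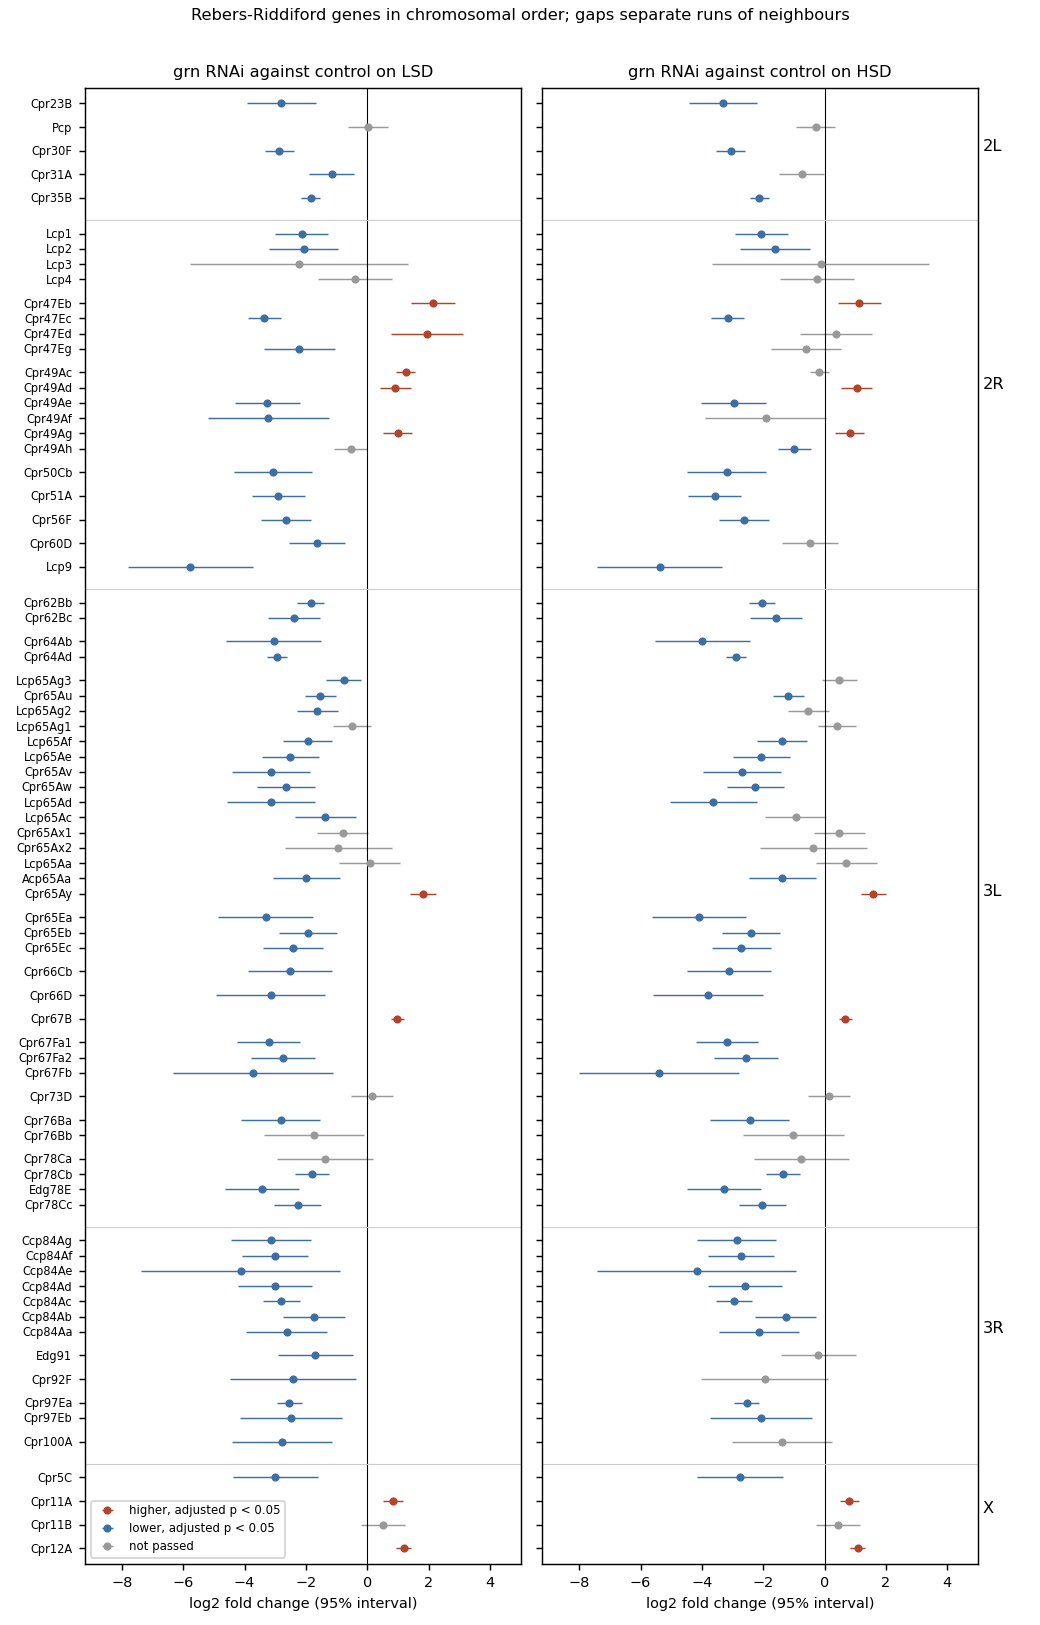
Log2 fold change of each of the 75 genes between libraries labelled grn RNAi and control libraries on LSD and on HSD, in order along the chromosome arms, with bars of the 95% interval. On LSD 54 genes lie left of 0 and pass, 40 of them beyond −2, and 9 lie right of 0 and pass.

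The Ccp84A cluster fell as a block. All 7 genes passed on LSD, with a median log2 fold change of −2.996. Ccp84Ac, which varied least among them, read 22.53, 39.02, 18.31 and 39.41 normalized CPM in libraries labelled grn RNAi on LSD, against 238.1, 198.7, 161.1 and 206.4 in control. No library of either group came near the other, and the log2 fold change was −2.80 ± 0.28 (SE; adjusted p = 1.3e-06, limma). Ccp84Ag stood at −3.14, Ccp84Af at −3.02, Ccp84Ad at −2.996, Ccp84Aa at −2.63 and Ccp84Ab at −1.72. Ccp84Aa and Ccp84Ab are close copies, and reads that fit both may have been lost or assigned to either.

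Ccp84Ae shows how uneven the libraries could be. It read 100.5, 31.01, 0.4985 and 50.88 normalized CPM in libraries labelled grn RNAi on LSD, against 678.5, 208.7, 341.8 and 313.3 in control. The groups did not overlap, but replicate 3 labelled grn RNAi lay far under the other 3 of its group. Its log2 fold change of −4.13 ± 1.49 (SE) passed with limma (adjusted p = 0.030) and not with the count test of edgeR (adjusted p = 0.071), and it was lost when control LSD replicate 1 or 3 or grn LSD replicate 3 was left out.

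The Lcp genes, named for proteins isolated from larval cuticle, were lower for the most part. Of 13, 9 fell on LSD and none rose, with a median log2 fold change of −1.94. Lcp9 fell furthest of any member by value. It read 2.053, 0.1027, 0.06647 and 0.06482 normalized CPM in libraries labelled grn RNAi on LSD, against 66.56, 21.52, 105.8 and 27.81 in control. These came from 78 reads in the 4 libraries labelled grn RNAi and 5330 in the 4 control libraries, and the log2 fold change was −5.78 ± 0.93 (SE; adjusted p = 0.00014, limma).

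Lcp1 to Lcp4, which encode major proteins of late larval cuticle, lie next to each other, and of these Lcp1 and Lcp2 passed as lower on LSD. Lcp1 read 9.398, 9.754, 6.248 and 6.579 normalized CPM in libraries labelled grn RNAi on LSD, against 56.91, 22, 44.45 and 30.67 in control, a log2 fold change of −2.14 ± 0.39 (adjusted p = 0.00041, limma). Lcp2 fell with it (−2.07, adjusted p = 0.0039). Lcp4 read 323.8, 282.2, 259.4 and 276.8 in libraries labelled grn RNAi on LSD, against 459.9, 189.7, 911.5 and 254.4 in control, and was even in the first group while the control values lay on both sides of it. Its log2 fold change of −0.41 had a 95% interval of −1.62 to 0.80, which leaves room for a fall or a rise. Lcp3 read 32.76, 7.359, 6.713 and 5.445 in libraries labelled grn RNAi on LSD, against 64.14, 11.97, 300 and 21.87 in control, and with an SE of 1.63 its −2.23 was as large as that of Lcp1 and far from the threshold (adjusted p = 0.26). Differences between the 4 genes were not tested. The 4 genes resemble each other in sequence, so their split of reads is uncertain.

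Along the 65A run the lower genes were unevenly strong. Lcp65Af, by length the best expressed of the Lcp genes in control on LSD, read 420, 346, 190.5 and 293.2 normalized CPM in libraries labelled grn RNAi on LSD, against 1692, 845.3, 1221 and 1022 in control. Every value labelled grn RNAi lay under every control value, and the log2 fold change was −1.94 ± 0.37 (SE; adjusted p = 0.00053, limma). Lcp65Ad stood at −3.14 and Lcp65Ae at −2.50, while Lcp65Ag2 stood at −1.63 and Lcp65Ac at −1.37. Lcp65Ag1 at −0.49 (adjusted p = 0.17) and Lcp65Aa at 0.09 (adjusted p = 0.89) did not pass. Lcp65Ag3 at −0.77 passed (adjusted p = 0.021) but not after quantile normalization (adjusted p = 0.16) or on CPM without the scaling of the authors (adjusted p = 0.069). Lcp65Ag1, Lcp65Ag2 and Lcp65Ag3 are close copies and their separate values are uncertain.

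Of the 4 members named for later stages or for ecdysone, 3 fell on LSD. Edg78E, known from prepupal epidermis as a gene induced after ecdysone withdrawal, read 2.978, 1.232, 0.2991 and 2.009 normalized CPM in libraries labelled grn RNAi on LSD, against 30.84, 14.09, 19.36 and 17.47 in control, and its log2 fold change was −3.43 ± 0.55 (SE; adjusted p = 0.00013, limma). Edg91 stood at −1.70 (adjusted p = 0.020). Acp65Aa read 0.7807, 1.198, 0 and 0.6806 in libraries labelled grn RNAi on LSD, against 7.222, 2.342, 3.8 and 2.817 in control (−1.98, adjusted p = 0.0042). Pcp, which lies opposite to Gart on the other strand, read 3.007, 3.149, 2.36 and 2.722 in libraries labelled grn RNAi on LSD, against 2.941, 2.474, 4.394 and 1.716 in control. Its log2 fold change was 0.02, with a 95% interval of −0.62 to 0.66.

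Among the 51 Cpr genes, 35 fell and 9 rose on LSD, with a median log2 fold change of −2.40. Cpr64Ad (FBgn0035513, 3L from 4215379 to 4216414) is a clear example with little spread. It read 218.2, 200.6, 151.9 and 200.5 normalized CPM in libraries labelled grn RNAi on LSD, against 1766, 1481, 1221 and 1488 in control. The highest value labelled grn RNAi was far under the lowest control value, and the level was 7.71-fold lower (log2 fold change −2.95 ± 0.15, SE; adjusted p = 1.9e-09, limma). A stretch of Cpr64Ad overlaps CG43367 on the same strand, where reads cannot be assigned to 1 of the genes.

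Cpr47Ec fell in the same way and read 37.99, 87.21, 52.54 and 68.84 normalized CPM in libraries labelled grn RNAi on LSD, against 565.1, 680.1, 569.4 and 626 in control (−3.36 ± 0.24 on the log2 scale, SE; adjusted p = 6.9e-08, limma). Cpr65Ea and Cpr51A fell by similar amounts with more scatter among the libraries labelled grn RNAi. Cpr65Ea read 20.93, 198.3, 67.86 and 179.2 there on LSD, against 720.8, 1010, 658.2 and 1070 in control (−3.32 ± 0.71, SE; adjusted p = 0.0013). Cpr51A read 44.65, 130, 57.5 and 114.9 in libraries labelled grn RNAi on LSD, against 537.1, 679.9, 489.4 and 675.2 in control (−2.90, adjusted p = 2.9e-05). For both genes replicates 2 and 4 were the higher pair of the libraries labelled grn RNAi.

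Besides Cpr47Ec, Cpr65Ea and Cpr67Fb, the Cpr genes below −3 on the log2 scale on LSD were Cpr49Ae at −3.25, Cpr49Af at −3.23, Cpr67Fa1 at −3.22, Cpr66D at −3.15, Cpr65Av at −3.14, Cpr50Cb at −3.09, Cpr64Ab at −3.05 and Cpr5C at −3.01. Cpr23B stood at −2.80, Cpr30F at −2.87 and Cpr97Ea at −2.54. Cpr35B, at −1.84, had 13.42, 11.91, 11.5 and 10.4 normalized CPM in libraries labelled grn RNAi on LSD, against 54.06, 41.18, 42.75 and 37.72 in control. Cpr67Fb read 1.966, 31.42, 0.565 and 35.26 in libraries labelled grn RNAi on LSD, against 142.9, 84.26, 52.69 and 137.7 in control. Replicates 2 and 4 labelled grn RNAi were again the higher pair, and the log2 fold change of −3.72 ± 1.196 (SE) passed with limma (adjusted p = 0.017) and not with edgeR (0.087) or DESeq2 (0.061).

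**Figure D3:**
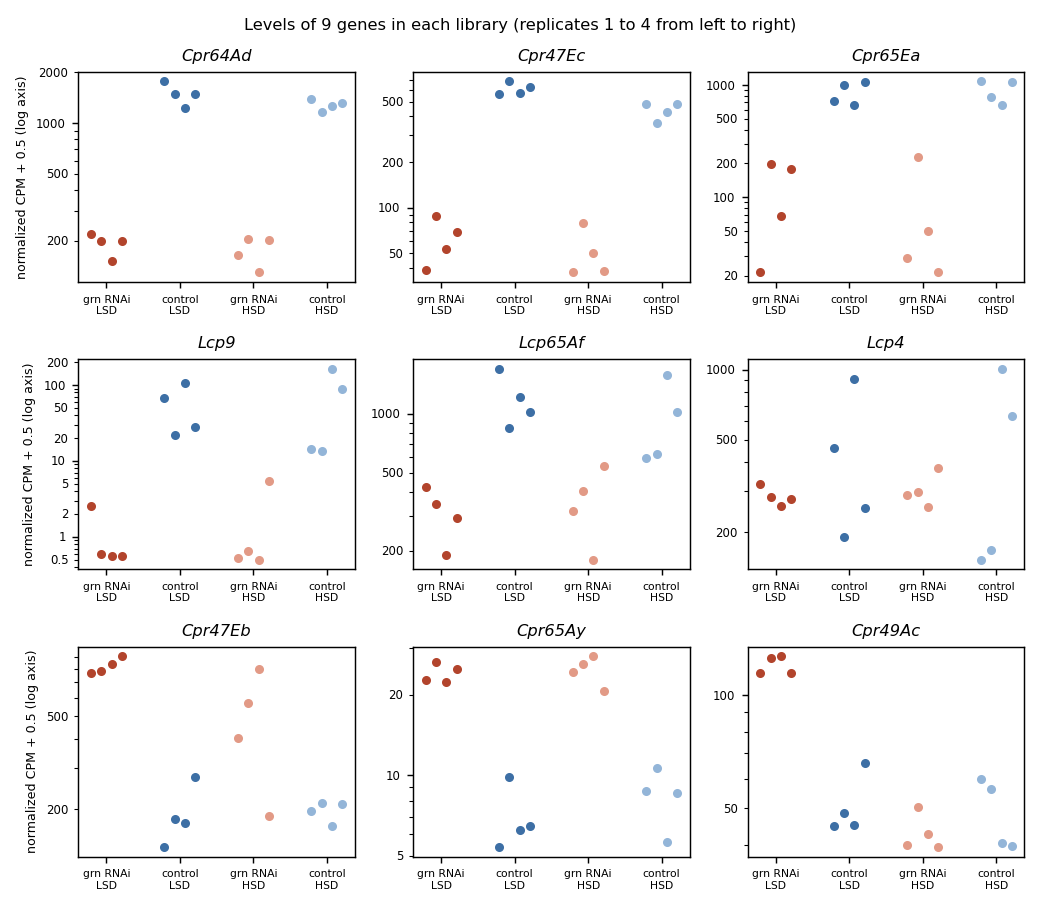
Levels of 9 of the genes in each library, in normalized CPM plus 0.5 on a log axis, with replicates 1 to 4 from left to right in each group. Cpr64Ad, Cpr47Ec, Cpr65Ea, Lcp9 and Lcp65Af were lower in libraries labelled grn RNAi, Lcp4 did not pass, Cpr47Eb and Cpr65Ay were higher on both diets, and Cpr49Ac was higher on LSD and not on HSD.

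All 9 members that rose on LSD were Cpr genes. Their median log2 fold change was 1.18, and 5 lay beyond 1. Cpr47Eb (FBgn0033598) led them. It read 766.5, 783.2, 842.6 and 907 normalized CPM in libraries labelled grn RNAi on LSD, against 137.1, 180.1, 173.2 and 274.2 in control. The lowest value labelled grn RNAi was well above the highest control value, and the level was 4.44-fold higher (log2 fold change 2.15 ± 0.33, SE; adjusted p = 7.8e-05, limma).

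Cpr65Ay, the last gene of the 65A run, read 22.18, 25.91, 21.77 and 24.4 normalized CPM in libraries labelled grn RNAi on LSD, against 4.887, 9.323, 5.74 and 5.941 in control (1.82 ± 0.19, SE; adjusted p = 2.4e-06, limma). Cpr47Ed read 33.83, 39.67, 42.01 and 50.27 in libraries labelled grn RNAi on LSD, against 7.655, 7.776, 11.6 and 15.84 in control (1.95 ± 0.54, SE; adjusted p = 0.0075). Both genes stood apart from their controls in every library. Cpr49Ac read 114.1, 124.9, 126.6 and 114 in libraries labelled grn RNAi on LSD, against 44.5, 48.2, 44.61 and 65.66 in control (1.25 ± 0.15, SE; adjusted p = 7.1e-06).

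The remaining higher genes rose by less. Cpr12A stood at 1.18, Cpr49Ag at 1.00, Cpr67B at 0.99, Cpr49Ad at 0.91 and Cpr11A at 0.83 on the log2 scale. Cpr67B had the smallest spread of the whole family and read 145, 138.6, 135.8 and 143.4 normalized CPM in libraries labelled grn RNAi on LSD, against 66.65, 73.25, 82.49 and 62.18 in control. Summed over the 9 genes, the level was 1975 ± 91.8 normalized CPM (SD, n = 4) in libraries labelled grn RNAi on LSD, which was 36.4% of the family's sum, against 771 ± 42.4 (SD, n = 4) or 5.2% in control. The 54 lower genes summed to 2764 ± 654 (SD, n = 4) in libraries labelled grn RNAi on LSD, 49.6% of the family, against 13140 ± 2480 (SD, n = 4) or 87.0% in control. Since these 9 and 54 genes were sorted by the same values, the sums are a description.

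Neighbours in a run could part. Of 42 adjacent pairs within runs, 24 were both lower on LSD, 1 was both higher (Cpr49Ac and Cpr49Ad) and 6 went opposite ways, and in the other pairs at least 1 gene did not pass. At 47E the order along the chromosome was Cpr47Eb higher, Cpr47Ec lower, Cpr47Ed higher and Cpr47Eg lower. Only 3122 bases separate Cpr47Eb from Cpr47Ec and 1102 separate Cpr47Ec from Cpr47Ed, while Cpr47Eg lies 16150 bases further on. At 49A, Cpr49Ad rose and Cpr49Ae fell with 10516 bases between them, and Cpr49Af fell and Cpr49Ag rose with 747 bases between them. At 65A the opposite pair was Acp65Aa and Cpr65Ay, 5329 bases apart. The Ccp84A run, the 67F run (Cpr67Fa1, Cpr67Fa2 and Cpr67Fb) and the 65E run (Cpr65Ea, Cpr65Eb and Cpr65Ec) were lower throughout.

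On the high sugar diet the comparison of the same labels gave 45 lower and 7 higher members, 60% and 9.33% of the family, where 21.2% of all genes tested were called lower and 17.9% higher. The median log2 fold change was −1.96 over the family and 0.0132 over all genes. Of the 45 lower genes, 37 lay beyond −2, and their median was −2.69, a 6.43-fold lower level. Non-overlapping values counted 39 members below and 6 above, against 19.9% and 18.7% of all genes tested.

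Each diet was tested against its own control libraries, and 44 of the 75 members were lower and 7 higher on both, where 17.3% of all genes tested were called lower and 14.1% higher on both. Cpr64Ad read 163.9, 205, 129.7 and 203.5 normalized CPM in libraries labelled grn RNAi on HSD, against 1399, 1159, 1257 and 1317 in control (−2.89 ± 0.15, SE; adjusted p = 4.7e-09, limma). Cpr47Ec read 36.86, 78.69, 49.31 and 37.76 in libraries labelled grn RNAi on HSD, against 483.6, 361.3, 429 and 479.9 in control (−3.16 ± 0.24, SE; adjusted p = 2.7e-07). No value labelled grn RNAi reached a control value in either gene. Cpr65Ea read 28.13, 227.6, 49.15 and 20.87 in libraries labelled grn RNAi on HSD, against 1077, 788.2, 665.6 and 1060 in control (−4.10 ± 0.71, SE; adjusted p = 0.00037), with replicate 2 far above the other libraries labelled grn RNAi. Cpr51A stood at −3.58, Cpr64Ab at −3.99, Cpr66D at −3.80 and Cpr23B at −3.31.

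Cpr67Fb read 0.9781, 43.1, 0.2737 and 2.276 normalized CPM in libraries labelled grn RNAi on HSD, against 138.9, 167.6, 144.2 and 130.9 in control (−5.40 ± 1.196, SE; adjusted p = 0.0024, limma). Lcp9 read 0.03373, 0.1558, 0 and 4.932 in libraries labelled grn RNAi on HSD, from 174 reads, against 14.06, 12.96, 163.2 and 87.75 in control, from 6957 reads (−5.38 ± 0.93, SE; adjusted p = 0.00039). In both genes a single library labelled grn RNAi held nearly all of the signal of its group, and it still lay below every control library.

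All 7 Ccp84A genes were lower on HSD too, with a median of −2.73. Ccp84Ac read 21.42, 37.3, 13.41 and 25.65 normalized CPM in libraries labelled grn RNAi on HSD, against 191, 175.2, 174.4 and 183.8 in control (−2.95 ± 0.28, SE; adjusted p = 1.6e-06, limma). The calls of Ccp84Ae (−4.17, adjusted p = 0.038) and Ccp84Ab (−1.27, adjusted p = 0.041) were weak, and Ccp84Ae did not pass with edgeR (0.18) or DESeq2 (0.13). Of the 13 Lcp genes 6 were lower on HSD: Lcp1 at −2.06, Lcp2 at −1.62, Lcp9, Lcp65Ad at −3.63, Lcp65Ae at −2.07 and Lcp65Af at −1.39. Edg78E stood at −3.28 (adjusted p = 0.00030) and Acp65Aa at −1.38 (adjusted p = 0.041).

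Members higher on both diets were Cpr11A, Cpr12A, Cpr47Eb, Cpr49Ad, Cpr49Ag, Cpr65Ay and Cpr67B. Cpr65Ay read 23.88, 25.54, 27.41 and 20.08 normalized CPM in libraries labelled grn RNAi on HSD, against 8.248, 10.13, 5.108 and 8.061 in control (1.59, adjusted p = 1.6e-05, limma). Cpr12A stood at 1.08 (adjusted p = 4.2e-06). Cpr47Eb read 404.7, 569.6, 800.2 and 186.5 in libraries labelled grn RNAi on HSD, against 195.3, 211.1, 169.6 and 209.8 in control, so that replicate 4 lay among the control values (1.14 ± 0.33, SE; adjusted p = 0.013).

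A further 10 members passed as lower on LSD and did not pass on HSD: Cpr31A, Cpr47Eg, Cpr49Af, Cpr60D, Cpr92F, Cpr100A, Edg91, Lcp65Ac, Lcp65Ag2 and Lcp65Ag3. Cpr47Eg, by length the best expressed member over all libraries, read 375.9, 268.4, 165.6 and 211.2 normalized CPM in libraries labelled grn RNAi on LSD, against 1861, 655.6, 1645 and 835.8 in control (−2.22 ± 0.53, SE; adjusted p = 0.0028, limma). On HSD it read 605.3, 483.5, 385.4 and 780.2 in libraries labelled grn RNAi, against 336.9, 472.4, 2467 and 1208 in control, where replicates 1 and 2 of control lay within or under the values labelled grn RNAi (−0.61, adjusted p = 0.39). For none of the 10 did the difference between the diets pass with limma. Cpr49Ah passed as lower on HSD only, Cpr47Ed and Cpr49Ac as higher on LSD only, and 11 members passed on neither diet. Cpr49Ah averaged 1.49 normalized CPM in control on HSD and 0.84 or less in the other groups. It thus passed the filter on low values through the group in which it was highest, and its call is not independent of that filter. On HSD it rested on 52 reads in libraries labelled grn RNAi and 154 in control.

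Sugar feeding was the second question. In control larvae no member passed in either direction (limma), where 22.3% of all genes tested were called lower with sugar and 19.3% higher. At an unadjusted p of 0.05, 1 member was higher (Cpr12A) and 2 were lower (Cpr49Ad and Cpr78Cb); edgeR called none after adjustment and DESeq2 called Cpr12A higher. By value 59 of the 75 members were lower on HSD, with a median of −0.333 against 0.0202 over all genes. Members were measured less precisely than most genes: the median SE of a member was 0.454 on the log2 scale against 0.0803 over all genes. Cpr64Ad, among the more precise, had a log2 fold change of −0.21 with a 95% interval of −0.53 to 0.12 between HSD and LSD in control, Ccp84Ac one of −0.14 (−0.74 to 0.46), and Lcp65Af one of −0.40 (−1.21 to 0.40).

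That count depended on control HSD replicate 3, the library with the highest sum of the group. Without it 7 members passed as lower on HSD in control (Lcp2, Edg91, Ccp84Ab, Lcp65Aa, Cpr49Ad, Cpr78Cb and Cpr60D) and 3 as higher (Cpr12A, Cpr49Ah and Cpr65Ay), where 22.4% of all genes tested without it were called lower and 19.5% higher. The family thus stayed under the background in both directions. Lcp65Aa is an example. It read 10.69, 19.01, 74.73 and 37.93 normalized CPM in control on HSD, against 63.14, 25.76, 60.09 and 31.77 in control on LSD, and replicate 3 on HSD was above every other control library.

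In larvae labelled grn RNAi, 3 members passed as higher with sugar and 4 as lower, where 18.3% of all genes tested were called higher and 23.3% lower. The share of the family called was thus under the background in both directions. The median was −0.265 over the family and −0.0192 over all genes. The 3 higher members all lay in the 65A run. Lcp65Ag3 read 1132, 923.1, 616.3 and 1221 normalized CPM on HSD, against 516.5, 536.7, 405.5 and 428.1 on LSD in libraries labelled grn RNAi (1.01 ± 0.26, SE; adjusted p = 0.0060, limma). Cpr65Ax1 read 6.307, 4.751, 3.597 and 6.362 on HSD, against 2.631, 2.362, 1.662 and 1.523 on LSD in libraries labelled grn RNAi (1.17 ± 0.38, SE; adjusted p = 0.024). The values of the diets did not overlap in either gene.

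Lcp65Ag2 was higher by 0.82 (adjusted p = 0.044, limma), a call lost when any of 9 single libraries was left out and under quantile normalization (adjusted p = 0.072). Like Lcp65Ag3 and Cpr65Ax1, it has near-identical copies in the same run. Lower on HSD in libraries labelled grn RNAi were Cpr49Ac, Cpr67B, Cpr47Eb and Cpr47Ed. Cpr67B read 108.4, 115.6, 128.2 and 98.96 on HSD, against 145, 138.6, 135.8 and 143.4 on LSD (−0.32, adjusted p = 0.015), and without grn HSD replicate 4 it missed the threshold (adjusted p = 0.053). Cpr47Eb at −0.93 (adjusted p = 0.033) and Cpr47Ed at −1.52 (adjusted p = 0.037) passed with limma but not with edgeR (0.069 and 0.081) or DESeq2 (0.052 and 0.084). Without grn HSD replicate 4, in which Cpr47Ed read 2.481 against 16.8, 24.88 and 33.39 in the other 3 HSD libraries labelled grn RNAi, the log2 fold changes were −0.53 for Cpr47Eb (adjusted p = 0.075) and −0.76 for Cpr47Ed (adjusted p = 0.034).

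Whether the label's effect differed between the diets was tested as an interaction. Of the 75 members only Cpr49Ac passed with limma, and it was lower, where 1.63% of all genes tested were called lower and 3.72% higher. edgeR gave the same single member, and DESeq2 gave Cpr49Ac and, as higher, Lcp65Ag3. Cpr49Ac (FBgn0033725) read 39.43, 49.92, 42.31 and 38.99 normalized CPM in libraries labelled grn RNAi on HSD, against 59.4, 55.75, 39.94 and 39.19 in control on HSD. On LSD the level was 2.38-fold higher in libraries labelled grn RNAi, as given above, and on HSD they lay within the range of their controls or just under it. The difference of the log2 fold changes was −1.42 ± 0.21 (SE; adjusted p = 0.0015), and it held when each of the 16 libraries was left out in turn. Cpr49Ac was also the member with the clearest response to sugar in libraries labelled grn RNAi (−1.49 ± 0.15, SE; adjusted p = 1.8e-06), against −0.07 in control larvae (adjusted p = 0.74).

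Without control HSD replicate 3 the interaction called 6 members higher (Lcp65Ag1, Lcp65Ag2, Lcp65Ag3, Cpr65Ax1, Cpr47Eg and Cpr60D) besides Cpr49Ac as lower. Of these, 4 lie in the 65A run. With all 16 libraries the differences of these 6 did not pass, so for them a different effect on the diets was not established. The share of all genes called by the interaction without that library was not counted, so the 6 have no background beside them.

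**Figure D4:**
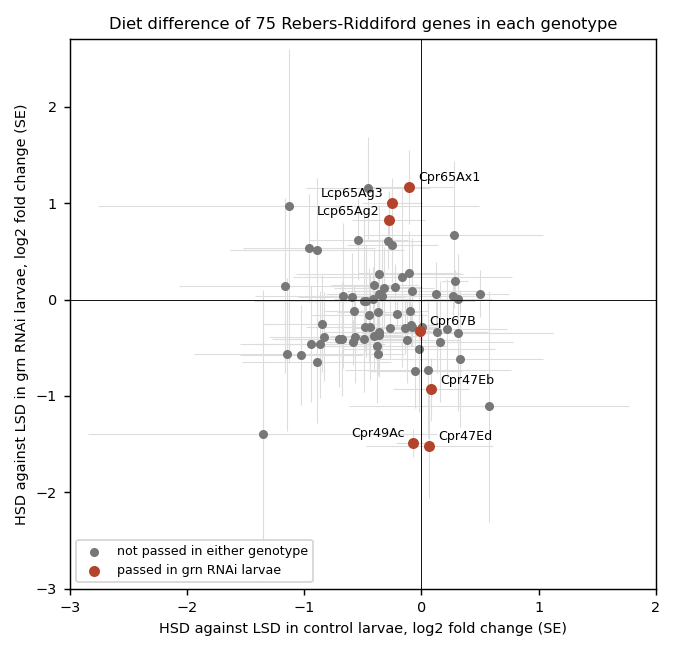
Log2 fold change between HSD and LSD for each of the 75 genes in libraries labelled grn RNAi and in control libraries, which share no library. The 7 genes that passed in libraries labelled grn RNAi are named, and none passed in control larvae.

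Across the family the responses to sugar in libraries labelled grn RNAi and in control were compared as a description (Pearson's r = −0.0551 and Spearman's rho = −0.0188 over the 75 genes, which are not independent replicates). By value 59 members were lower on HSD in control, 46 in libraries labelled grn RNAi, and 36 in both. With r and rho this small, the 36 do not show a shared fall. The share over all genes was not counted.

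Levels between genes were compared per kilobase of exon. Over the 16 libraries the highest means were 1894 normalized CPM per kb for Cpr47Eg, 1367 for Lcp65Ag3, 1356 for Lcp65Af, 1282 for Lcp65Ag2 and 1018 for Lcp65Ag1, followed by Cpr65Ea at 907.6, Cpr64Ad at 816.8, Cpr47Eb at 521, Cpr51A at 503.4 and Lcp4 at 484.6. The family covered a wide range: in control on LSD, 34 members averaged at least 100 normalized CPM and 15 averaged under 10. The order changed between groups. Cpr47Eb was first in libraries labelled grn RNAi on LSD, at 1010 ± 78.1 per kb (SD, n = 4), and ranked 25 in control on LSD. It ranked 6 in libraries labelled grn RNAi on HSD and 23 in control on HSD. Its share of the family's sum was 15.0% in libraries labelled grn RNAi and 1.26% in control on LSD, and 7.94% against 1.51% on HSD.

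In control larvae the first places went to Cpr47Eg, at 2968 ± 1408 per kb on LSD (SD, n = 4) and 2663 ± 2317 on HSD, and to Lcp65Af, at 2303 ± 703.7 on LSD. With such spreads these neighbours in the order did not differ beyond their SD. In libraries labelled grn RNAi on HSD the first was Lcp65Ag3, at 1792 ± 494.9 per kb (SD, n = 4).

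The family was far more variable between libraries of 1 group than most genes tested. This was not particular to it, as some Tweedle genes, another family of cuticle proteins, varied at least as much. For the label on LSD the SE was 1.30 for TwdlM and 0.74 for TwdlH, but 0.13 for TwdlV and 0.069 for TwdlX. The median SE of a member was 0.454. The residual SD on the log2 scale had a median of 0.701 over the 75 members, against 0.115 over all genes tested, and all 75 members lay above 0.115. It ranged from 0.145 for Cpr67B to 2.52 for Lcp3. Within a group the median ratio of the highest to the lowest of the 4 libraries was 2.27 in libraries labelled grn RNAi and 2.09 in control on LSD, and 2.85 against 2.61 on HSD.

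These deviations were shared. After the group means were taken away, the first principal component of the members held 56.6% of their variance, the next 18.8% and 10.8%. It correlated above 0.5 with 54 members and below −0.5 with 8, namely Cpr12A, Cpr23B, Cpr47Eb, Cpr49Ac, Cpr49Ah, Cpr65Ay, Cpr65Eb and Cpr66Cb. Of these 8, 4 are among the genes that rose in libraries labelled grn RNAi on LSD, while Cpr23B, Cpr65Eb and Cpr66Cb fell and Cpr49Ah did not pass. The other genes that rose lay on both sides of 0: Cpr49Ad (0.708), Cpr11A (0.641), Cpr49Ag (0.445), Cpr67B (0.139) and Cpr47Ed (−0.431). The median correlation between 2 members was 0.463, and 70.6% of pairs were above 0; the pairs share the same 16 libraries.

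The libraries at the high end were grn HSD replicate 4, whose members lay at a median of 0.413 above their group mean on the log2 scale, grn LSD replicate 1 (0.236), control LSD replicate 1 (0.423) and control HSD replicate 3 (0.69, with 58 of 75 members above the mean). At the low end were grn LSD replicate 3 (−0.393), grn HSD replicate 3 (−0.431), control LSD replicate 2 (−0.353), and control HSD replicates 1 (−0.473) and 2 (−0.361). Since deviations were taken from the mean of each group, every group has libraries on both sides by construction, whatever its label or diet. Without control HSD replicate 3 the label on LSD called 57 members lower and 9 higher, and the label on HSD 40 lower and 9 higher, where Lcp65Ag1 and Lcp65Aa joined the higher genes. The share of all genes called for the label without that library was not counted.

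**Figure D5:**
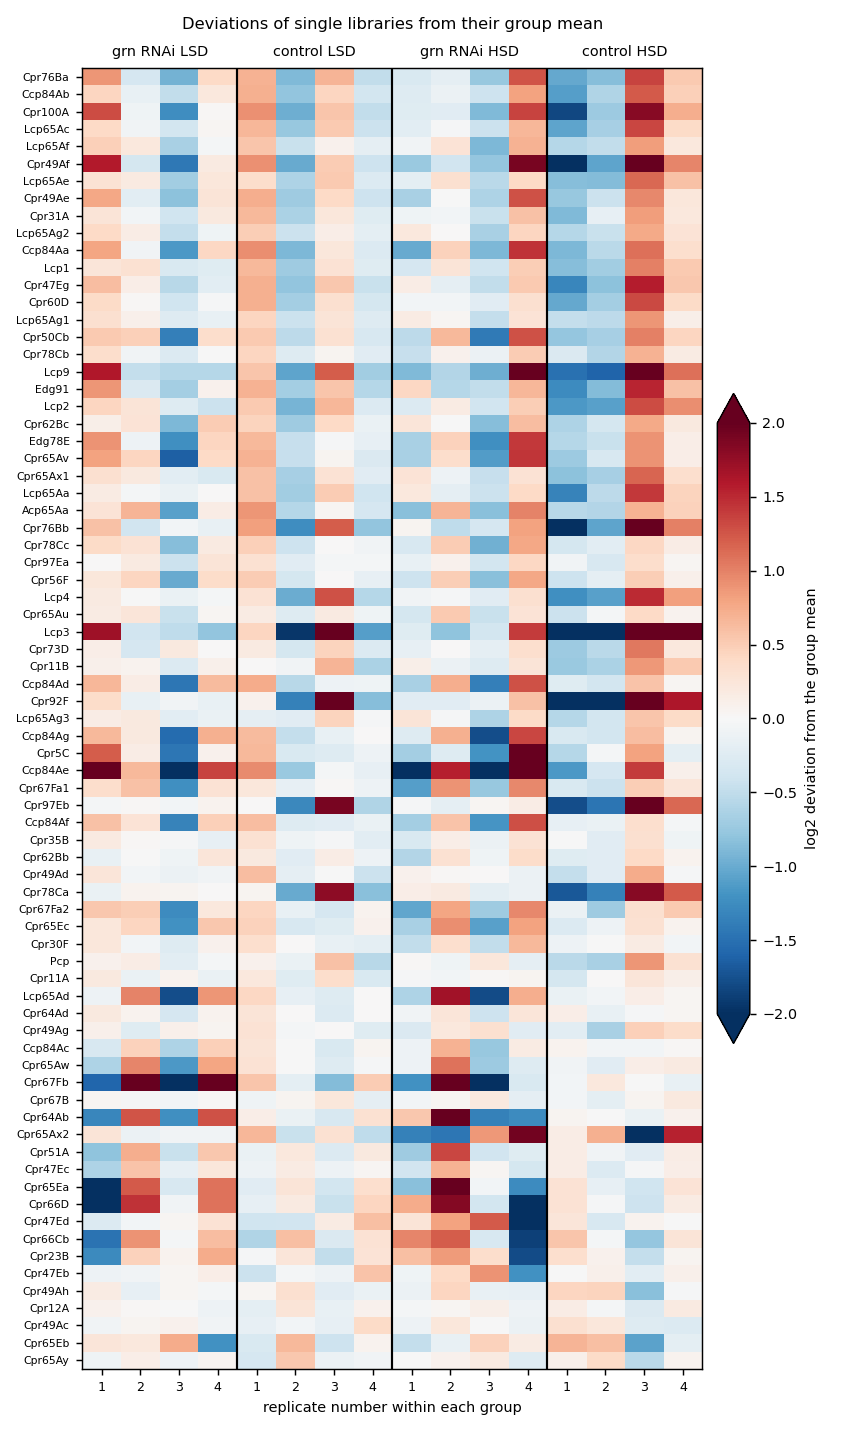
Deviation of each member from its group mean in every library, on the log2 scale of normalized CPM plus 0.5. Every group has libraries on both sides of its own mean by construction. Within a library most members lie on the same side, and 8 members run the opposite way.

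Genes outside the family that make or shape cuticle were read from lists fixed with the members. Over all genes tested, 27.1% were called in each direction on LSD, and 17.9% were called higher and 21.2% lower on HSD. Of 26 Tweedle genes, which encode another family of cuticle proteins, 25 fell and none rose for the label on LSD (median −3.46), and 22 fell on HSD (median −3.72). TwdlM averaged 219.6 ± 142 normalized CPM in libraries labelled grn RNAi on LSD, against 1861 ± 696 in control (SD, n = 4 each). Of 21 genes of chitin synthesis and assembly, 16 fell and 1 rose on LSD (median −1.52), and 17 fell and 1 rose on HSD (median −1.18). The chitin synthase gene kkv stood at −1.52 on LSD and −1.67 on HSD, the chitin deacetylase genes serp at −2.15 and −1.86 and verm at −2.21 and −1.86, and obst-A, which encodes a chitin-binding matrix protein, at −2.49 and −2.03. The sum of that list was 2493 to 2693 normalized CPM in libraries labelled grn RNAi and 7725 to 10400 in control on LSD.

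Of 7 cuticle tanning enzymes 6 fell on LSD and 4 on HSD, none rising. ple, which encodes tyrosine hydroxylase, stood at −2.22 on LSD and −1.70 on HSD, and Ddc, dopa decarboxylase, at −2.12 and −1.75. The body colour gene y averaged 24.3 ± 5.24 normalized CPM in libraries labelled grn RNAi on LSD, against 2507 ± 97.1 in control (SD, n = 4 each), and y is a common marker of fly stocks, so the backgrounds of the 2 lines cannot be told apart from the label there. Among 11 apical ZP-domain matrix proteins, 3 rose on LSD (neo at 0.99, mey at 1.10 and pio at 0.34) and 1 fell (dyl at −2.74). As 27.1% of all genes tested were called in each direction, the rises lay near the background. On HSD none rose and 3 fell, among them dyl at −3.29, where 17.9% of all genes were called higher and 21.2% lower.

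Of 17 genes in the list of ecdysone response and moult timing, 4 rose and 7 fell on LSD, where 27.1% of all genes tested were called in each direction. On HSD 3 rose and 7 fell, where 17.9% of all genes were called higher and 21.2% lower, so the rises were at or under the background on both diets. The nuclear receptor gene ftz-f1, known to be active late in each moult cycle as ecdysone declines, averaged 22.5 ± 10.5 normalized CPM in libraries labelled grn RNAi on LSD, against 120.1 ± 19.9 in control (SD, n = 4 each; log2 fold change −2.52, adjusted p = 1.5e-05, limma). Blimp-1, a repressor of ftz-f1 induced by ecdysone, went the other way, at 61.3 ± 4.37 in libraries labelled grn RNAi on LSD, against 8.19 ± 2.49 in control (2.88, adjusted p = 8.2e-07). On HSD ftz-f1 stood at −2.82 and Blimp-1 at 1.84. Eip74EF stood at −2.57 on LSD and −2.78 on HSD. Of this list, ftz-f1, Blimp-1 and Eip74EF moved furthest on LSD. The list median was −0.0362 on LSD and −0.357 on HSD, and usp, Eip75B, Hr46, Hr4, br and ImpL1 did not pass on LSD.

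Of 5 genes of ecdysone biosynthesis, 3 rose on LSD and 4 on HSD, none falling. Of 7 epidermal transcription factors, 2 rose and 1 fell on LSD and 1 rose and 2 fell on HSD. Among 15 genes known from later 3rd instar larvae 5 were in the table, of which 1 rose and 2 fell on LSD and 1 rose and 1 fell on HSD. The calls among the epidermal transcription factors and the 3rd instar genes do not stand apart from the shares over all genes given above. The part of moult stage in the values of the cuticle genes was not tested.

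Most marker lists of other tissues held calls in 1 direction only, and the direction differed between lists. Over all genes tested, 27.1% were called in each direction on LSD, and 17.9% were called higher and 21.2% lower on HSD. Only the hemocyte and tracheal lists held calls in both directions, on LSD. Of 11 midgut markers 10 fell on LSD and 8 on HSD, none rising, and their sum was 3048 to 3263 normalized CPM in libraries labelled grn RNAi, against 5815 to 6263 in control on LSD. The largest falls of that list, in the protease genes Jon74E (−3.83 on LSD) and betaTry (−2.14), were as large as those of many cuticle genes. The median of the midgut list was smaller, −0.698 on LSD and −0.4 on HSD. Amy-p, at 0.90 on LSD, did not pass. Of 14 muscle markers 11 fell on LSD (median −0.22) and 1 on HSD, none rising; of 11 neuron markers 10 rose on LSD (median 0.385) and 5 on HSD, none falling. Of 7 tracheal markers, 4 of which the chitin or ZP lists also hold, 1 rose and 3 fell on LSD and 4 fell on HSD, and the sum was 1784 to 2023 normalized CPM in libraries labelled grn RNAi, against 4132 to 6092 in control on LSD. The 3 that fell on LSD, serp, verm and Gasp, are also in the chitin list. In control on LSD they averaged 1474, 1792 and 1226 normalized CPM and made up most of the sum. The markers btl, trh and uif did not pass on LSD, pio rose (log2 fold change 0.34), and the list median was −0.0251. On HSD the same 3 and trh (−0.30) fell. On HSD the tracheal sum was 1428 to 1879 in libraries labelled grn RNAi, against 3633 to 5777 in control. Fat body markers (6) had 1 lower on LSD and no call on HSD, hemocyte markers (6) had 1 higher and 2 lower on LSD and 1 lower on HSD, and the 3 salivary gland markers in the table had 1 higher on LSD and no call on HSD. These few calls do not set the fat body, hemocyte and salivary gland lists apart from all genes tested. The part of tissue composition in the values of the cuticle genes was not tested.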

How the data were processed

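Whole-larva RNA-seq of 16 libraries was read from 1 deposited table. Per the methods of the study, the authors' pipeline was Trimmomatic, then TopHat2 2.1.0 on FlyBase R6.10, strand-specific gene counts from HTSeq 2.7.6, a CPM filter and limma. The values used are the authors' normalized CPM, a signal that is whole reads times a constant per library: 100% of values came out whole within 0.01 read. The table also holds the authors' own log2 means and log2 fold changes, test scores and p-values, which were not used. No column of other samples was found (0).

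Genes above 1 in at least 3 of 4 libraries of a group were kept (9950 of 9982). limma 3.58.1 (R 4.3.3) was run on log2(value + 0.5), so folds of low genes are understated, with a variance trend and all 16 libraries, adjusted over all genes (Benjamini-Hochberg, 0.05, two-sided). All groups shared 1 estimate of the spread. edgeR 4.0.16 and DESeq2 1.42.0 on recovered reads, other pseudocounts, filters, scalings and thresholds, fits on 8 libraries, a replicate block and leaving out each library were alternatives. The tests were tested on simulated data. Positions and exon lengths are from the Ensembl annotation, matched by FlyBase identifier for all 75 genes. A planned description of protein and promoter sequences was not made. Depth and read totals are given with the results.

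Named were, per comparison, the called members of largest fold change that averaged 10 or more in 1 group (up to 10 each way, 6 for the interaction), the 10 highest per kb, and all Lcp, Ccp84, Edg, Acp65A and Pcp genes; other members are named in counts of 12 or fewer or were chosen after their values were seen. The members and the 15 gene lists were chosen with earlier results of these data known.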

Additional observations from a re-analysis of the deposited data

Results flagged for a closer look

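In each group of 4 libraries, the levels of 45 named members were searched for a library that stood apart from the other 3 by more than Dixon's 95% critical value. Of 180 groups checked 11 were marked, and chance marks about 1 in 20.

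Of the 11, 10 were in libraries labelled grn RNAi. On HSD replicate 2 held 119.3 normalized CPM of Cpr51A (28.53 to 39.6 in the other 3), 227.6 of Cpr65Ea (20.87 to 49.15) and 43.1 of Cpr67Fb (0.2737 to 2.276). Replicate 4 on HSD held 39.92 of Cpr49Af (5.787 to 7.788), 53 of Lcp3 (11.06 to 16.63) and 4.932 of Lcp9 (0 to 0.1558). On LSD replicate 1 held 32.76 of Lcp3 (5.445 to 7.359) and 2.053 of Lcp9 (0.06482 to 0.1027), and replicate 3 held 25.26 of Lcp65Ae (46.41 to 50.37).

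Replicate 2 on LSD held 316.8 of Cpr49Ag (389 to 402.9). In the control libraries, LSD replicate 1 held 298.9 of Ccp84Af (162.9 to 176.3).

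Cpr49Ac was marked because the effect of the grn RNAi label differed between HSD and LSD, by −1.417 on the log2 scale (adjusted p = 0.0015, limma interaction).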

How the results depend on the processing

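Over 29 alternatives, 73 results of 40 named genes gave no reversal; 16 of them missed the threshold under at least 1 alternative, 98 times in all. Scaling left the members' counts within 44 to 54 lower and at 7 or 9 higher for the grn RNAi label, though it moved all genes: against 2699 higher and 2692 lower on LSD and 1785 and 2109 on HSD, quantile normalization gave 4105 and 1905, and 3930 and 1442 (median of all genes shifted by 0.102 and 0.12), and CPM without the authors' scaling 5379 and 1597, and 4211 and 1391 (shifts of 0.194 and 0.137). For sugar in control larvae, 1 higher member was called with median-of-ratios scaling, CPM of all recovered reads or DESeq2, and 3 lower with only the 8 libraries compared. For sugar in libraries labelled grn RNAi, 7 higher were called with the 8 libraries, 1 higher and 1 lower at an adjusted p under 0.01, and 2 lower with edgeR or DESeq2. The interaction called 1 higher with DESeq2.

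With the replicate number as a block, sugar in libraries labelled grn RNAi called 2 lower members. Same-numbered deviations correlated from −0.512 to 0.798, and 7 of 16 libraries correlated best with their own number. The deviations within a group are tied by their mean, so these values do not settle whether the numbers pair the libraries.

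Leaving out 1 library gave 9 to 9 higher and 48 (without grn LSD replicate 3) to 57 lower members on LSD, 7 to 9 higher and 39 to 49 lower on HSD, 0 to 3 higher and 0 to 7 lower for sugar in control, 1 (without grn LSD replicate 3) to 5 higher and 2 to 6 lower for sugar in libraries labelled grn RNAi, and 0 to 6 higher and 1 to 1 lower for the interaction. Changes without control HSD replicate 3 are given with the results. Of the fits without 1 library, only that of sugar in control without this replicate has a share over all genes. The cause of these changes was not tested. Depth limits mainly the members at a few reads.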
